A study of Mus musculus with 87 samples.

Results

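H3K27me3 regions without a Suz12 region are the stretches of the mouse genome that the authors' DiffBind list of H3K27me3 regions holds and that share no base pair with any region of their DiffBind list of Suz12 regions. The members were thus chosen by the authors' H3K27me3 and Suz12 region calls. By this rule 4178 of the 6882 H3K27me3 regions (60.7%) were members, and the other 2704 (39.3%) overlapped at least 1 of the 2865 Suz12 regions. DiffBind is a program that compares ChIP-seq signal between groups over sets of regions, and both list headers name WT and a false discovery rate of 5%. The group WT was compared with and the direction of change are not given in the sources used here. A member is therefore a region with no counterpart on a list of regions called for Suz12, which is not the same as a region shown to be free of Suz12.

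Suz12 is a core subunit of Polycomb repressive complex PRC2, the enzyme that places methyl groups on lysine 27 of histone H3. The trimethylated form, H3K27me3, is found over silent genes. In embryonic stem cells PRC2 is held most firmly at CpG islands near the starts of developmental genes, such as the Hox clusters, and the mark reaches further than the sites at which the complex itself is enriched. Alternative splicing of exon 4 gives a long and a short Suz12 isoform.

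The cells were 129-B13 mouse embryonic stem cells (ESC) grown in serum with LIF, and neuronal precursors (NP) derived from them, harvested on day 8 with retinoic acid from day 4. The groups were wild type (WT), cells that always include exon 4 (CSex4), cells that lack exon 4 (Deltaex4), a full Suz12 knock-out (KO), and the knock-out with a long (KO-L) or short (KO-S) isoform put back. KO-L3D and KO-S3D carried the same rescues with the mutation the labels call 3D, with each isoform in the Rosa26 locus. Of 87 samples, 32 were RNA-seq and 55 were ChIP-seq, 18 of the latter for H3K27me3 and 7 for Suz12. RNA groups held 3 samples each of ESC WT and ESC KO, 4 of NP WT, and 2 of every other group. The labels do not say whether the samples of a group were separate cultures or clones.

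Expression enters as 13 tables of the authors' comparisons, with 26171 gene symbols each and no value per sample. Genes whose adjusted p was below 0.05 in a table of the authors were called. Suz12 itself was at -1.82 ± 0.22 (log2 fold change ± SE) in ESC KO vs WT and at -2.14 ± 0.33 in NP KO vs WT, per the authors' deposited tables. The libraries labelled KO-L3D stood at -1.85 ± 0.28 for Suz12 in the authors' deposited table, beside -1.05 ± 0.28 for KO-L, and every value given for them below carries that limit. All 5 ESC markers (Pou5f1, Nanog, Sox2, Zfp42 and Esrrb) had a baseMean, the mean scaled read number of a comparison, of at least 8956 in every ESC table. That mean pools both groups of a comparison and does not give the level in either. Summed over genes, baseMean lay between 26085140 and 31499803 across the 13 tables.

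The members were short and lay mostly far from Suz12. Their median width was 2382.5 bp (470 to 27757), against 5202 bp (819 to 119430) for the H3K27me3 regions with Suz12. Together they covered 11.4 Mb, and the smaller group with Suz12 covered 17.8 Mb. The authors' value per region, for which smaller means stronger statistical evidence, had a median of 1.83e-08 in members and 1.02e-32 in regions with Suz12. These widths and values describe what the lists hold, and they were not tested because the rule was built from the same lists.

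Distance to the nearest Suz12 region ran from 7 bp to 5701103 bp, with a median of 145277 bp. Members under 1 kb from a Suz12 region numbered 180 (4.31%), and 422 (10.1%) lay at 1 to 10 kb. A further 1130 lay at 10 to 100 kb. The largest class, with 2078 members (49.7%), lay at 100 kb to 1 Mb, and 368 (8.81%) lay at 1 Mb or more. The 3 nearest members were chr5:35890833-35893284 at 7 bp, chr4:41726066-41730725 at 9 bp and chr5:28171661-28174052 at 10 bp. The second overlapped the span of Arid3c and the third that of the homeobox gene En2. On the other side of the rule, the H3K27me3 regions with the smallest overlap shared 11, 21 and 24 bp with a Suz12 region. Coordinates are as the lists give them, counted from 1, and mm10 is the mouse build in the submitters' processing notes.

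Members differed from regions with Suz12 in how often they held a gene start. Gene starts came from RefSeq promoter windows on GRCm38.p6, which leave out part of the protein-coding genes, so a region may hold an unlisted start. They cover no start on chromosome 18, so 153 members there were left out of this count. Of the other 4025 members, 1143 (28.4%) held at least 1 start. Another 1929 (47.9%) overlapped a gene, in full or in part, without holding a listed start, and 953 (23.7%) touched no gene of the RefSeq table. The same shares were 62.4%, 33.0% and 4.67% for regions with Suz12. The shares differed within width classes too. Among regions of 2 to 4 kb, 31.9% of members and 52.8% of regions with Suz12 held a start. Among those of 8 kb or more, 21.4% and 71.2% did. With chromosome 18 counted, that class held only 42 members, beside 517 regions with Suz12. Starts were least frequent in members close to Suz12, with 6.94% under 1 kb and 11.7% at 1 to 10 kb, against 34.2% at 100 kb to 1 Mb.

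**Figure D1:**
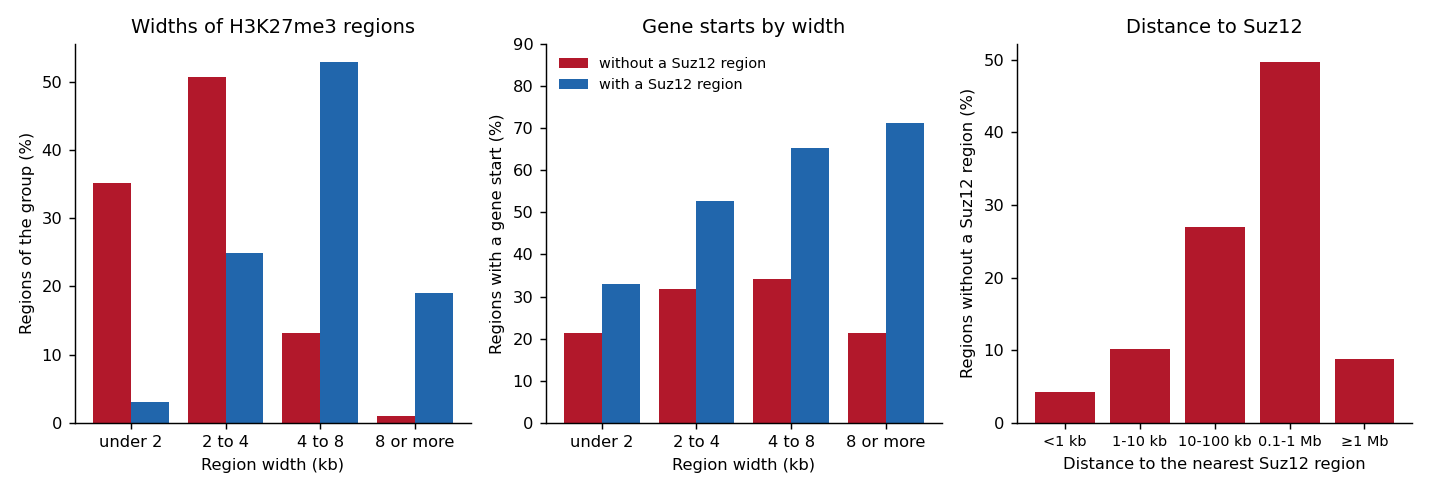
Left, share of H3K27me3 regions in each width class (kb) for the 4178 regions without and the 2704 with a Suz12 region. Middle, share of the regions of each width class that hold a gene start. Right, share of the regions without Suz12 by distance to the nearest Suz12 region. Regions without Suz12 are mostly under 4 kb and hold a gene start less often in all 4 width classes plotted.

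The members with the smallest values were wide domains without a listed gene start. A 22596 bp domain at chr2:159056232-159078827 had the smallest value, 6.38e-110, touched no gene and lay 387082 bp from the nearest Suz12 region. The next was chr2:33567653-33587979 (1.67e-108), overlapping Lmx1b, a LIM homeobox gene of limb and neuron development. It was followed by chr4:65238856-65263702 (1.13e-100), overlapping Pappa, a metalloproteinase of the insulin-like growth factor pathway. The fourth was chr2:136105593-136122618 (1.83e-89), overlapping Pak7, a p21-activated kinase. The widest member, 27757 bp at chr11:77934473-77962229, overlapped the neuronal gene Sez6 and lay only 1073 bp from a Suz12 region. None of these 5 held a listed gene start. The fifth widest, chr7:143181164-143199723, overlapped the potassium channel gene Kcnq1, whose locus is imprinted. Members were spread over the genome, from 56.3% of the H3K27me3 regions on chromosome 19 to 65.5% on chromosome 12.

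The starts of 1220 genes lay in members and in no region with Suz12, 992 protein-coding and 228 long non-coding. Another 1932 genes had their starts in regions with Suz12, 21 had starts in both kinds, and 23852 had a start in neither. Promoter sequences are shown here for the 3 genes with the largest rises and the gene with the largest fall in ESC KO among those of the 1220 that were not below the median baseMean of tested genes. The start of the Hox gene Hoxa11, inside a Suz12 region, is shown for contrast. It was taken as the Hox gene with the largest called rise in ESC KO. Each window is 300 bases from RefSeq on GRCm38.p6, 5′ to 3′ on the gene's strand, with 250 bases before the start and 50 after it. Capitals mark every CpG. Dazl (chr17:50293571-50293870, minus strand) encodes an RNA-binding protein of germ cells, and Plagl1 (chr10:13090582-13090881, plus strand) an imprinted zinc finger factor. Rusc2 (chr4:43381732-43382031, plus strand) encodes an adaptor protein with 2 starts in its member, of which 1 is shown. Ina (chr19:47014431-47014730, plus strand) encodes the neuronal intermediate filament alpha-internexin. Hoxa11 is at chr6:52245761-52246060, minus strand.
Dazl: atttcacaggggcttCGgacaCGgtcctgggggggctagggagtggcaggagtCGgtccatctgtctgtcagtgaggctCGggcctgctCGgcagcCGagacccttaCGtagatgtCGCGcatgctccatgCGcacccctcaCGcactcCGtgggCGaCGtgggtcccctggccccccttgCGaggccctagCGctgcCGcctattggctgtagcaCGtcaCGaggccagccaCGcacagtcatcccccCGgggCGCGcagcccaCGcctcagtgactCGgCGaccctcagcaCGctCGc
Plagl1: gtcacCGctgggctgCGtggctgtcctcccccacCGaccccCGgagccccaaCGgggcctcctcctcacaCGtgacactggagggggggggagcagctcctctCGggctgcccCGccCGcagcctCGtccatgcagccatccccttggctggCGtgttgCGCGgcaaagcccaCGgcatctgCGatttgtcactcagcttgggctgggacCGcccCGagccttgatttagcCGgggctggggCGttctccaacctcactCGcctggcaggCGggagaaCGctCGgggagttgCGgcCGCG
Rusc2: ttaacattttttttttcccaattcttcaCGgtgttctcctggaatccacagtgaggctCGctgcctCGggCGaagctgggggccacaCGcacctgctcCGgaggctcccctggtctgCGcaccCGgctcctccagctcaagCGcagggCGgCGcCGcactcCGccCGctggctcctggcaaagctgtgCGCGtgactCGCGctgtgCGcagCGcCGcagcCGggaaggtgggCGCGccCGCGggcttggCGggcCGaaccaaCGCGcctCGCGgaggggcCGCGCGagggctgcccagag
Ina: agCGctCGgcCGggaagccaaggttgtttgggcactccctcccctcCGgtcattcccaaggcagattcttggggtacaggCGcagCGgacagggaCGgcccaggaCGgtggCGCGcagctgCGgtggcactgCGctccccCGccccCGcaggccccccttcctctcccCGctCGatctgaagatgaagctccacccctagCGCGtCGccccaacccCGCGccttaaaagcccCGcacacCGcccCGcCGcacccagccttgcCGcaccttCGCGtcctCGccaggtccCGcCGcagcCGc
Hoxa11: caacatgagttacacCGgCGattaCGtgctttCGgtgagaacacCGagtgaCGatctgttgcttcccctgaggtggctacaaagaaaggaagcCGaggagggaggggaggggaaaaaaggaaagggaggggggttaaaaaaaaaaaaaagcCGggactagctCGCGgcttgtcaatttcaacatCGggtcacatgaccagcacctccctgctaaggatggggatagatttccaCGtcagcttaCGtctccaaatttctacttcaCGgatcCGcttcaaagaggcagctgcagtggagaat

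These 4 member starts held more CpG than the Hox start shown. Dazl held 28 CpG in its window, Plagl1 26, Rusc2 35 and Ina 32, and Hoxa11 held 15. GC content was 68.7%, 70.7%, 70.0% and 71.7% in that order, and 51.0% for Hoxa11. The ratio of observed to expected CpG was 0.795, 0.696, 0.953 and 0.876, and 0.787 for Hoxa11. These picked windows do not stand for their groups. The median number of CpG was 18 over all member windows and 21 over all windows in regions with Suz12.

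Over all starts, members were intermediate in base composition. A window was called CpG-rich at a GC content of at least 50% and an observed to expected CpG ratio of at least 0.6. Of 1405 windows in members, 767 (54.6%, 95% Wilson interval 52.0 to 57.2) were CpG-rich, against 63.8% of 2332 windows in regions with Suz12 and 30.0% of 29114 windows at no H3K27me3 region. The share was 68.5% for starts inside a Suz12 region and 33.5% for all 32851 windows. Median GC content was 62.3% in members, 64.3% in regions with Suz12 and 51.7% at no H3K27me3 region. The median CpG ratio was 0.642, 0.723 and 0.337, respectively. Intervals here and below cover counting error only, and windows of 1 gene share sequence.

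**Figure D2:**
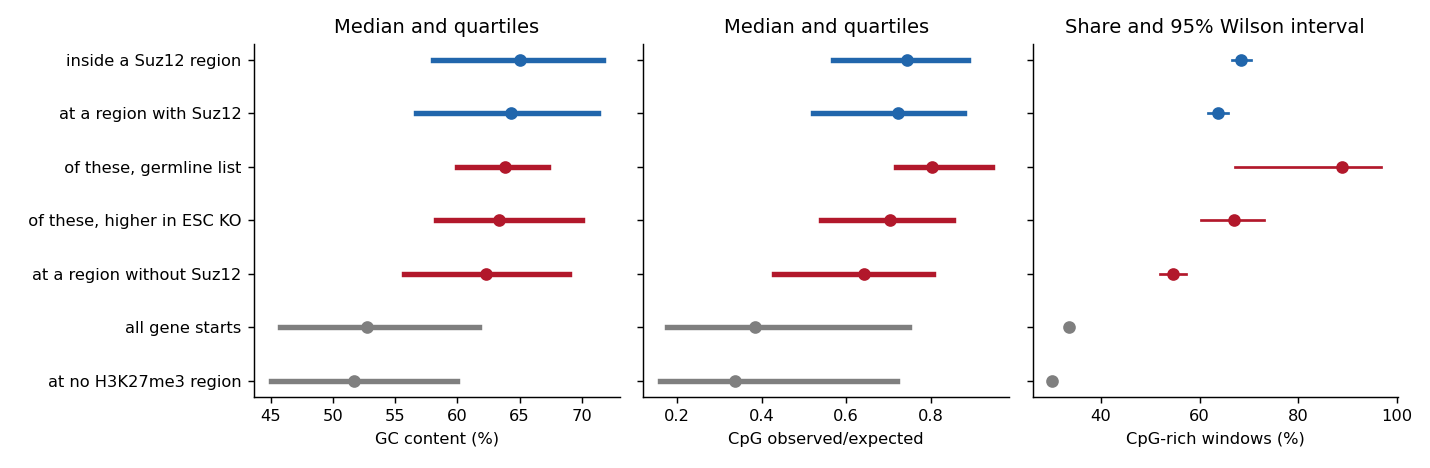
GC content, observed to expected CpG ratio and share of CpG-rich windows for 300-base windows at gene starts, by the region the start lies in. Thick bars in the left and middle panels run from the lower to the upper quartile, and thin bars in the right panel are 95% Wilson intervals. The 54.6% of CpG-rich windows at regions without Suz12 lie between the 30.0% at no H3K27me3 region and the 63.8% at regions with Suz12.

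The letters of 3 short motifs were searched on both strands, without removing overlaps between them. CGCG, which lies within many CpG islands, was in 64.8% of member windows, 73.2% of windows in regions with Suz12 and 38.0% of all windows. GGCGGGA, the core of an E2F site, was in 18.2%, 21.4% and 11.3%. CACGTG, the E-box bound by Myc-family factors, was in 8.83%, 8.02% and 7.15%. A match is a description of letters and not a bound site.

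Some gene classes were nearly all at regions with Suz12, and others were split between both kinds of region. Over all 27025 genes with a listed start, 1220 were in members, 1932 with Suz12 and 21 in both. None of 22 Hox genes with a listed start lay in a member, while 21 lay in a region with Suz12. Likewise 0 of 56 other homeobox genes lay in a member and 53 lay in a region with Suz12. Of 54 Fox, Sox, Tbx and Gata factors, 1 was in a member and 30 were with Suz12, and of 44 Wnt, Fgf, Bmp and Gdf ligands the counts were 3 and 28. Germline genes leaned the other way, with 15 of 94 in members and 5 with Suz12. Zinc finger proteins had 17 in members and 10 with Suz12, out of 336, so their share in members was near that over all genes. Solute carriers had 30 and 44 of 307, and ion channels and transmitter receptors 24 and 64 of 157, with 2 more in both. Of 35 keratins, 2 were in members, also near the share over all genes, and 0 with Suz12. Of 8 pluripotency genes, 0 were in members.

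In ESC without Suz12, more of the genes at members were higher than lower. Of the 1220 genes, 1069 were in the tables, 33 of these were at 0, and 905 had an adjusted p in ESC KO vs WT. Of these 905, 180 (19.9%, 95% Wilson interval 17.4 to 22.6) were called higher and 33 (3.65%, 2.61 to 5.08) lower. Over all 13224 tested genes with a listed start, 10.5% were called higher and 7.43% lower. The genes at regions with Suz12 had 30.8% of 1378 called higher and 3.19% lower. Counted over all 1069 listed genes, tested or not, 16.8% of those at members and 7.14% of all genes were called higher. The median log2 fold change was 0.39 at members, 0.82 at regions with Suz12 and 0.00 over all genes in the authors' deposited table. In ESC KO vs WT, 2 of 4 trophoblast markers (median 2.15) and 1 of 3 fibroblast markers (median -0.06) were higher and 0 were lower. Of 4 primitive endoderm markers, 0 were called (median 2.07). The part of these markers in the calls at members was not tested.

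By distance to Suz12, the share called higher in ESC KO differed by less than its intervals. It was 21.6% of 37 genes with a gap under 10 kb (11.4 to 37.2), 19.7% of 223 at 10 to 100 kb (15.0 to 25.4) and 19.8% of 645 at 100 kb or more (16.9 to 23.1). In KO-S vs WT, which has its own account below, the intervals of the shares at 10 to 100 kb (20.3% of 192, 15.2 to 26.6) and at 100 kb or more (9.39% of 543, 7.22 to 12.1) did not overlap, with 7.41% of 27 (2.06 to 23.4) under 10 kb. By width, in ESC KO, 14.3% of 238 genes at members under 2 kb (10.4 to 19.3), 22.1% of 524 at 2 to 4 kb (18.8 to 25.9) and 21.0% of 143 at 4 kb or more (15.1 to 28.4) were called higher. Regions with Suz12 had 27.2% of 301 genes called higher at 2 to 4 kb and 31.8% of 1056 at 4 kb or more. The median baseMean of tested genes was 112 at members, 63.8 at regions with Suz12 and 442 over all genes. Among genes with a baseMean of at least 100, 23.7% of 472 at members, 39.2% of 551 at regions with Suz12 and 8.98% of 9088 over all genes were called higher. Starts of members called higher were CpG-rich in 67.0% of 203 windows (60.3 to 73.1), starts called lower in 58.5% of 41 (43.4 to 72.2), and starts tested and not called in 63.1% of 795 (59.7 to 66.4).

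The genes named next had the largest called rises or falls among genes with a baseMean at or above the median of tested genes. Less abundant genes with larger changes are given with their lists below. In the authors' deposited table for ESC KO vs WT, Dazl rose by 2.67 ± 0.30 (log2 fold change ± SE, adjusted p 1.92e-16). Plagl1 rose by 2.65 ± 0.26 (adjusted p 2.89e-22) and Rusc2 by 2.44 ± 0.32 (adjusted p 5.06e-12) in the authors' deposited table. Fam81a followed at 2.29 ± 0.22, Lrrc15, a leucine-rich repeat membrane protein, at 2.21 ± 0.32 and the alpha-tubulin gene Tuba3a at 2.17 ± 0.30. Aqp3, a channel for water and glycerol, stood at 2.09 ± 0.20 in the authors' deposited table. Col9a2, a chain of cartilage collagen IX, stood at 1.98 ± 0.20. Mael, which acts in the silencing of transposons in germ cells, stood at 1.97 ± 0.29, and Rab11fip5, an effector of Rab11 in vesicle traffic, at 1.89 ± 0.27. Their members were 1669 to 4012 bp wide and lay from 12943 bp (Mael) to 872956 bp (Tuba3a) from the nearest Suz12 region.

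Among genes at or above the same baseMean limit, Ina had the largest fall. It fell by 2.80 ± 0.22 on the log2 scale in the authors' deposited table (adjusted p 6.45e-34). Trh, which encodes thyrotropin-releasing hormone, fell by 1.52 ± 0.20 (adjusted p 6.80e-12) in the authors' deposited table. Frmd4b, a scaffold protein with a FERM domain, and Vsig10, a protein with immunoglobulin domains, both stood at -1.14, with SE of 0.35 and 0.22. Car4, a membrane carbonic anhydrase, stood at -1.13 ± 0.20. All 15 genes had baseMean values of at least 422 in this comparison. The member at Ina lay 235917 bp from Suz12 and that at Frmd4b 2030060 bp.

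The share of member genes called against WT differed between the rescued lines, and so did the share over all genes. The labels list 1 set of ESC WT libraries, so the 7 ESC comparisons share it as far as the labels show, and each is given on its own. In KO-L, 17 of 717 tested genes at members (2.37%) were higher and 4 (0.558%) lower, against 1.41% and 0.784% of all 10965 genes. In KO-S, 92 of 762 (12.1%, 9.95 to 14.6) were higher and 45 (5.91%, 4.44 to 7.81) lower, against 4.02% and 3.39% of all 11425. In the libraries labelled KO-L3D, 96 of 795 (12.1%) were higher and 54 (6.79%) lower, against 7.80% and 9.93% of all 12000. In KO-S3D, 22 of 728 (3.02%) were higher and 11 (1.51%) lower, against 1.93% and 1.19% of all 11299. Regions with Suz12 stood at 7.34% higher and 0.310% lower in KO-L, and at 11.4% higher and 12.1% lower in KO-S. Whether the rescues differed from each other at members was not tested.

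With the exon fixed in CSex4, 23 of 701 tested genes at members (3.28%) were higher and 8 (1.14%) lower in ESC, against 1.60% and 0.696% of all 10926. Deltaex4 had 0 calls in either direction among 1025 genes at members, and 0% of all 15637 genes were called in the authors' table, so this zero is not a result about members. At an unadjusted p under 0.05, 14 of the 1025 genes at members passed in Deltaex4, beside 92 of all 15637 genes.

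**Figure D3:**
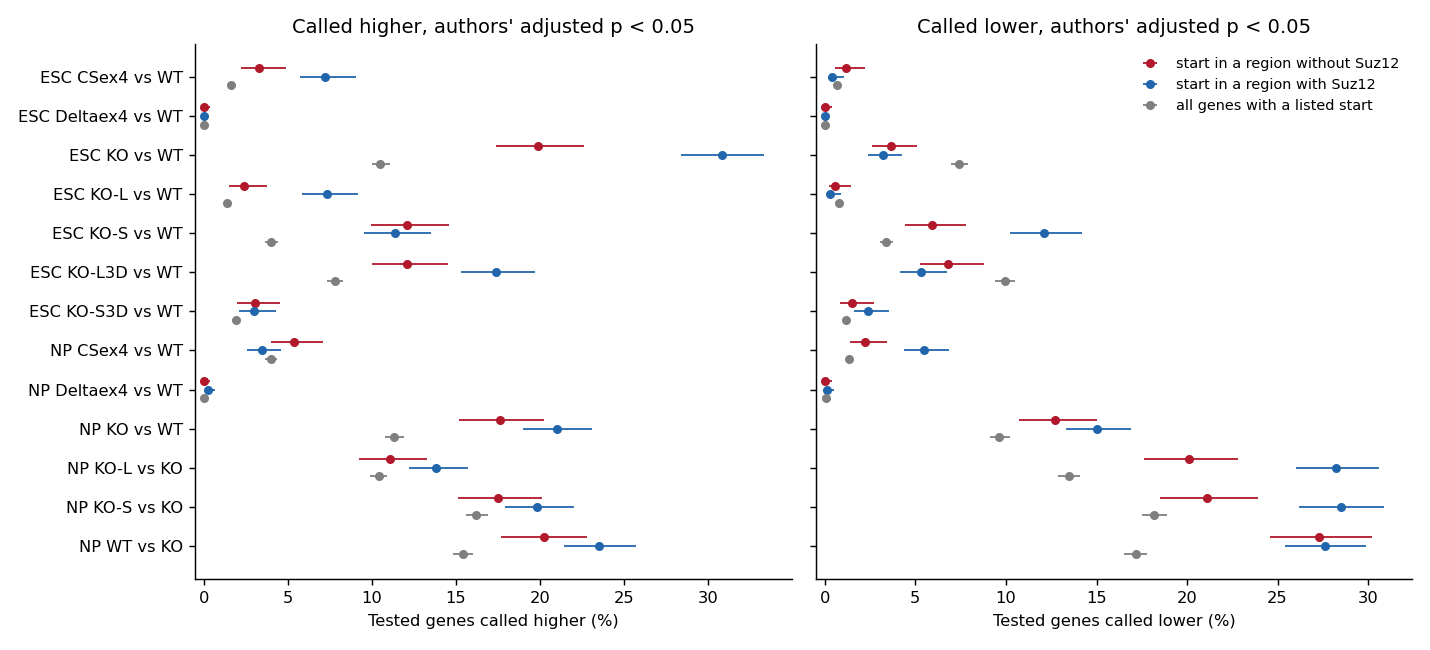
Share of tested genes called higher (left) and lower (right) in each of the 13 comparisons of the authors, for genes with a start in a region without Suz12, in a region with Suz12, and for all genes with a listed start. Bars are 95% Wilson intervals. In ESC KO vs WT, 19.9% of genes at regions without Suz12 were called higher, between 10.5% of all genes and 30.8% of genes at regions with Suz12.

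These 15 genes followed separate courses in the rescues. Rusc2 stood at 1.21 ± 0.55 in KO-L and was not called (adjusted p 0.396), and at 2.75 ± 0.45 in KO-S (adjusted p 1.33e-07), where it rose, in the authors' deposited tables. Fam81a was at 0.89 ± 0.47 in KO-L and rose by 2.79 ± 0.34 in KO-S in the authors' deposited tables. Aqp3 was at 0.41 ± 0.45 in KO-L, rose by 1.81 ± 0.30 in KO-S, and had -1.24 ± 0.40 in CSex4 without a call (adjusted p 0.0631). These 3 genes were called in KO-S and KO-L3D and not in KO-L.

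Plagl1 had the widest range. It rose in KO-L (2.05 ± 0.41), KO-L3D (3.43 ± 0.34) and CSex4 (1.73 ± 0.48), and fell by 3.81 ± 0.73 on the log2 scale in KO-S, with an adjusted p of 1.12e-05, per the authors' deposited tables. Plagl1 is imprinted, which means that 1 parental copy is normally silent. Ndn, another imprinted gene of the list, rose by 1.47 ± 0.23 in ESC KO in the authors' deposited table. Dazl and Mael were called in ESC KO and in no other ESC comparison, with Dazl at 0.49 ± 0.60 in KO-L and 0.77 ± 0.48 in KO-S in the authors' deposited tables. Ina fell in KO-L3D (-4.71 ± 0.31), KO-S3D (-1.68 ± 0.42) and KO-S (-1.13 ± 0.30) and was not called in KO-L (-0.42 ± 0.31, adjusted p 0.802). Trh fell in CSex4 (-1.30 ± 0.38) and KO-S3D (-1.15 ± 0.35) and rose in KO-L3D (1.16 ± 0.30) in the authors' deposited tables.

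**Figure D4:**
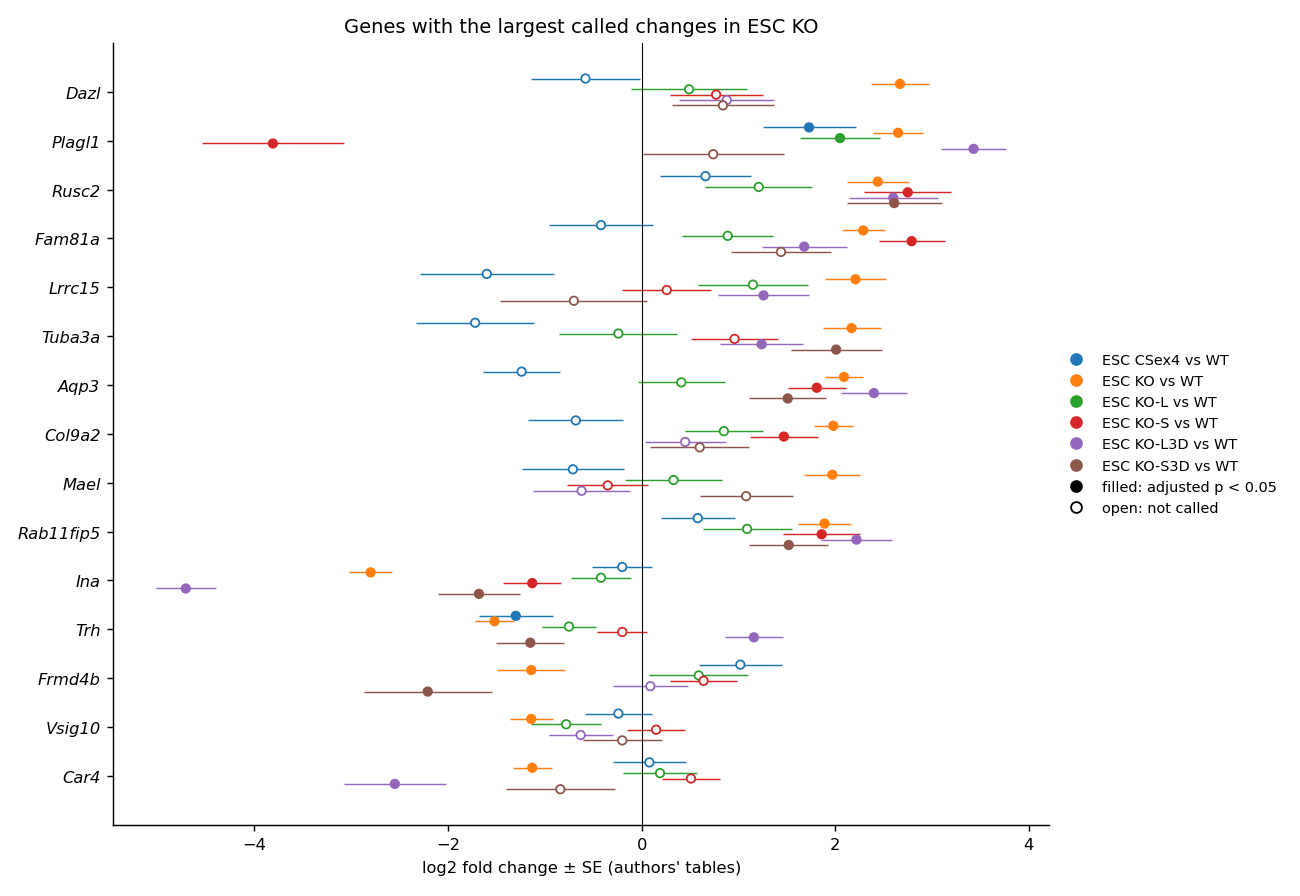
Authors' log2 fold change against WT, with its SE as bars, for 15 genes at regions without Suz12, the 10 largest called rises and 5 largest called falls in ESC KO among genes with a baseMean at or above the median of tested genes, in 6 ESC comparisons. Filled points were called at an adjusted p under 0.05. Plagl1 lies at -3.81 in KO-S and above 0 in the 5 other comparisons plotted, and Ina lies below 0 in all 6.

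Other genes at members led the remaining ESC comparisons. In CSex4, Krt18, an epithelial keratin, rose by 2.41 ± 0.44 and Igfbp3, which binds insulin-like growth factors, by 2.27 ± 0.44 in the authors' deposited table. The ubiquitin ligase gene Rnf157 (-2.81 ± 0.54) and Cpt1a (-2.18 ± 0.46), which brings fatty acids into mitochondria, fell in the same table. Krt18 also rose in KO-L (1.57 ± 0.33), where the kinase gene Plk2 rose by 1.67 ± 0.29 in the authors' deposited table. Rnf157 fell in KO-L as well (-2.08 ± 0.38), with Hexa, a lysosomal hexosaminidase subunit, at -1.38 ± 0.35. In KO-S, Fez1, which acts in axon growth, rose by 2.99 ± 0.33 and Cpt1a by 2.13 ± 0.35, and the tight-junction gene Cldn7 and Bspry fell (-2.06 ± 0.33 and -1.86 ± 0.37), in the authors' deposited table. Dysf, a membrane repair protein, rose by 2.68 ± 0.39 in KO-L3D. In KO-S3D, Lgals3, a galectin, rose by 1.97 ± 0.46 and Zfp488 by 1.74 ± 0.40, and the kinesin gene Kif5c (-2.10 ± 0.49) and Igfbp3 (-2.01 ± 0.45) fell in the authors' deposited table. Markers of other cells moved in some of these groups: 2 of 3 fibroblast markers were higher in CSex4 and in KO-L, and 3 of 4 trophoblast markers in KO-L3D (median log2 fold change 4.94). Of the 5 ESC markers, 2 were lower and 0 higher in CSex4 (median log2 fold change -1.06), and 1 was higher and 0 lower in KO-L3D. The part of all these markers in the calls at members was not tested.

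Germline genes are a class of genes that act in meiosis, in piRNA defence or in germ cell identity. Those at members were not all silent in ESC: in ESC CSex4 vs WT, baseMean was 297 for Mael and 411 for Tdrd5, and 3.77 for Tex12. In ESC KO, 8 of the 15 at members rose and 0 fell, with a median log2 fold change of 1.36 in the authors' deposited table. The rise was not confined to members: 3 of 5 tested germline genes at regions with Suz12 and 18 of 40 at no H3K27me3 region also rose, with medians of 1.38 and 1.65. Brdt, a bromodomain protein of spermatocytes, rose by 2.90 ± 0.37 (adjusted p 6.10e-13) in the authors' deposited table. Tex12, a protein of the synaptonemal complex, rose by 2.55 ± 0.96 at a baseMean of 11.3, and Slc25a31, a testis ADP/ATP carrier, by 2.18 ± 0.39. Taf7l, Tdrkh and Mov10l1 rose by 1.78 ± 0.41, 1.36 ± 0.26 and 1.20 ± 0.32. Tdrd1 (0.03 ± 0.26), Tdrd5 (-0.26 ± 0.30) and Hormad1 (0.30 ± 0.44) were not called. The list was drawn from name patterns and also took in Tex2 (0.39 ± 0.18, not called), by its symbol alone.

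The starts of these genes carried CACGTG more often than other windows. Among the 18 windows of the 15 genes, 10 (55.6%) held it, against 8.83% of member windows and 7.15% of all windows. Germline windows at no H3K27me3 region held it in 14 of 85 cases (16.5%), and germline windows at regions with Suz12 in 2 of 6 (33.3%). The windows were also CpG-rich in 88.9% of cases (67.2 to 96.9). Matches fell in 8 of the 15 genes and are shown because their frequency was above that of all windows. Each line gives the match in capitals with the bases beside it, 5′ to 3′ on the gene's strand, from the RefSeq windows on GRCm38.p6.
Brdt (chr5:107331106-107331131, plus strand): caggcacagtCACGTGgcagaccctg
Hormad1 (chr3:95559647-95559672, plus strand): gcgcactgcgCACGTGctgaccggag
Hormad1 (chr3:95559610-95559635, plus strand): aagggtgcgcCACGTGccagtgacag
Mael (chr1:166238952-166238977, minus strand): ccaggcctacCACGTGacaatccccg
Mov10l1 (chr15:88982744-88982763, plus strand): ccttCACGTGctaaccgcca
Slc25a31 (chr3:40708768-40708793, plus strand): caactggaaaCACGTGttatggtcac
Taf7l (chrX:134476524-134476549, minus strand): cctcttatacCACGTGacagaactcg
Tdrd1 (chr19:56826188-56826213, plus strand): gggctgcgcgCACGTGggagtaaact
Tex12 (chr9:50561346-50561371, minus strand): gcgagactgtCACGTGgctcgcgcgc

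The first base of the match lay 78 bases before the start in Brdt, 223 in Mael, 246 in Mov10l1, 93 in Slc25a31, 49 in Taf7l and 93 in Tex12. Hormad1 and Tdrd1 have 2 listed starts each, and their positions are given from the upstream one: 20 and 57 bases in Hormad1 and 11 in Tdrd1. Of these 8 genes, Brdt, Mael, Mov10l1, Slc25a31, Taf7l and Tex12 rose in ESC KO, and Hormad1 and Tdrd1 did not pass the test. Dazl and Tdrkh rose and had no match in their windows.

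In NP the calls for these genes differed between the tables with different WT libraries. The labels tie NP KO vs WT and NP WT vs KO to different WT libraries and list 1 set of NP KO libraries, which both tables share as far as the labels show. In NP KO vs WT, 1 of 14 germline genes at members was higher (Slc25a31, 2.52 ± 0.77) and 2 were lower (Tdrkh, -1.77 ± 0.40, and Dmrtb1, -2.48 ± 0.81) in the authors' deposited table. Over all genes 11.3% were higher and 9.63% lower there, so these counts are near the background. In NP WT vs KO, 9 of 15 were lower in WT, that is, higher in KO, and 1 was higher, beside 17.2% and 15.4% of all genes. This was not confined to members. Of germline genes at regions with Suz12, 3 of 5 were lower and 0 higher in that table. At no H3K27me3 region 20 of 46 were lower and 1 higher. There, 3 of 5 ESC markers were lower and 1 higher (median log2 fold change -1.59), and 4 of 4 trophoblast markers were lower (median -2.25). Among the germline genes at members were Slc25a31 at -5.21 ± 0.83, Dazl at -4.10 ± 1.31 and Mael at -3.93 ± 0.72 in the authors' deposited table. NP CSex4 vs WT had 5 of 14 higher and 0 lower, beside 3.98% and 1.33% of all genes. Among the 5 were Hormad1 (2.46 ± 0.54), Smc1b, a meiotic cohesin subunit (2.36 ± 0.40), and Dazl (2.16 ± 0.36) in the authors' deposited table. Of germline genes at regions with Suz12, 1 of 5 was higher there, and at no H3K27me3 region 10 of 39, with 0 lower in both. In that comparison 4 of 5 ESC markers were higher and 3 of 5 NP markers lower, and the part of the markers in the germline calls of both tables was not tested.

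**Figure D5:**
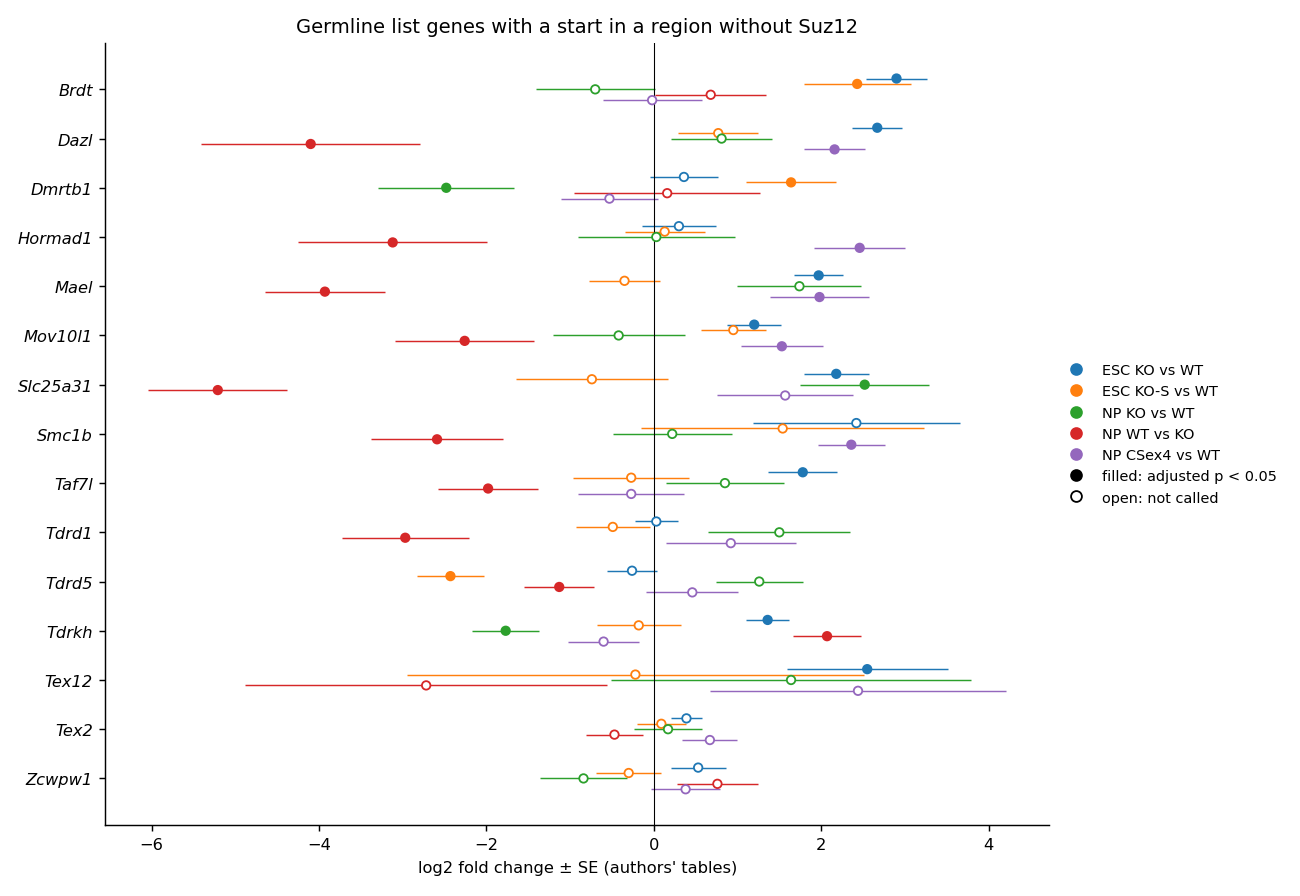
Authors' log2 fold change with SE for the 15 germline list genes that start in a region without Suz12, in 5 comparisons. Filled points were called at an adjusted p under 0.05, and in NP WT vs KO a negative value means a higher level in KO. In ESC KO vs WT 8 of the 15 were called, all 8 above 0, and in NP WT vs KO 9 were called below 0.

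Other lists are read beside the 10.5% of all genes called higher and 7.43% called lower in ESC KO. Of 28 tested solute carriers at members, 9 rose and 0 fell, with a median of 0.65 in the authors' deposited table. The largest called rise among the examples was Slc34a2, a phosphate transporter, at 2.98 ± 1.14 (adjusted p 0.0494) and a baseMean of 36.3. Of 16 ion channels and transmitter receptors, 2 rose and 2 fell, with the rises near the share over all genes. Grin1, the common subunit of NMDA receptors, rose by 2.38 ± 0.46, and the potassium channel gene Kcnh8 fell by 3.02 ± 0.82 on the log2 scale, in the authors' deposited table. Zinc finger proteins had 0 of 14 higher and 1 lower, Zfp629 (-0.86 ± 0.30). Of 5 imprinted genes, 2 rose, Plagl1 and Ndn. Among single members of small lists, Krt7 rose by 1.62 ± 0.38, Cldn3 by 1.02 ± 0.26, Adgrg2, an adhesion receptor, by 2.02 ± 0.63 and the chemokine gene Cxcl10 by 1.67 ± 0.58 in the authors' deposited table. At regions with Suz12, 17 of 21 tested Hox genes and 24 of 47 other homeobox genes rose in ESC KO, with medians of 5.23 and 2.45.

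In NP, genes at members were called in both directions. In KO vs WT, 158 of 898 tested (17.6%, 15.2 to 20.2) were higher and 114 (12.7%, 10.7 to 15.0) lower, against 11.3% and 9.63% of all 12837 genes. In WT vs KO, 192 of 952 (20.2%) were higher and 260 (27.3%) lower, against 15.4% and 17.2% of all 13442. KO-L vs KO had 102 of 916 (11.1%) higher and 184 (20.1%) lower, against 10.4% and 13.5% of all 13058. KO-S vs KO had 155 of 887 (17.5%) higher and 187 (21.1%) lower, against 16.2% and 18.2% of all 12710. CSex4 vs WT had 44 of 822 (5.35%) higher and 18 (2.19%) lower, against 3.98% and 1.33% of all 12254. Deltaex4 vs WT had 0 of 947 in either direction, with 0.0370% and 0.0519% of all 13498 genes called. At an unadjusted p under 0.05, 35 of these 947 genes passed there, beside 286 of all 13498. The interval of the higher share at members held the share over all genes in KO-L vs KO (9.26 to 13.3) and KO-S vs KO (15.1 to 20.1), so these shares are near the background. As far as the labels show, CSex4, Deltaex4 and KO vs WT share their WT libraries, and the 4 tables with KO share the KO libraries.

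Neuronal and epithelial genes were among the named genes in NP, with different signs. Epha3, an ephrin receptor (-5.33 ± 0.56), and Phf21b (-5.20 ± 0.44) fell in NP KO vs WT, per the authors' deposited table. Tap1, a peptide transporter of antigen presentation, rose by 3.20 ± 0.35 and the tight-junction gene Cldn3 by 3.12 ± 0.37 in the same table. Elavl3, a neuronal RNA-binding protein, was 6.28 ± 0.40 higher (log2) in NP WT vs KO and Epha3 6.21 ± 0.30 higher, with Lgals3 at -3.06 ± 0.33 and the kinase gene Tec at -3.04 ± 0.29, in the authors' deposited table. With the long isoform restored, Pgbd5 rose by 4.29 ± 0.25 and Ina by 3.19 ± 0.28 against KO, and Cldn7 (-3.31 ± 0.21) and Cldn3 (-3.22 ± 0.24) fell, in the authors' deposited table. With the short isoform, Ina rose by 3.74 ± 0.24 and the endothelin receptor gene Ednrb by 3.46 ± 0.23, and Lgals3 (-3.88 ± 0.27) and Fndc1 (-2.86 ± 0.31) fell, in the authors' deposited table. In NP CSex4, Tuba3a rose by 2.78 ± 0.41 and Lgals3 by 2.72 ± 0.37, and Car14 (-1.32 ± 0.38) and Emid1 (-1.24 ± 0.36) fell in the authors' deposited table. Of 5 NP markers (Sox1, Pax6, Nes, Hes5 and Fabp7), 4 were lower in NP KO vs WT and 4 higher in NP WT vs KO, while 2 of 4 primitive endoderm and 2 of 4 trophoblast markers were higher in the first, and 2 and 4 of 4 lower in the second. In KO-L vs KO, 4 of 5 ESC markers (median log2 fold change 2.31), 2 of 3 fibroblast markers (3.15) and 3 of 5 NP markers were higher. There, 1 NP marker and 3 of 4 primitive endoderm markers were lower, and of 4 trophoblast markers 1 was higher and 1 lower. In KO-S vs KO, 5 of 5 NP markers were higher (3.14), and 4 of 4 trophoblast and 4 of 4 primitive endoderm markers lower. Of 5 ESC markers 1 was higher and 1 lower there, and 1 of 3 fibroblast markers was higher. In bulk RNA, fewer cells of a type and less RNA per cell cannot be told apart, and the part of the marker genes in these values was not tested.

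The ESC KO vs WT and NP KO vs WT tables share no library, so the effect of the knock-out could be compared between the cell states. Of 846 genes at members tested in both, 179 were higher in ESC and 152 in NP. The 52 higher in both were 29.1% of the first and 34.2% of the second, against 358 of 1327 and 26.6% over all genes. Of the ESC-higher genes at members 13 (7.26%) were lower in NP, against 8.06% over all genes, so the first and the last of these shares are near the background. The fold changes differed at an adjusted p under 0.05 (a Wald test of the difference between the authors' estimates, adjusted over all genes) for 173 genes at members (20.4%), against 13.2% of all 12326 genes. Of these 173, 109 had the higher value in ESC and 64 in NP, against 899 and 724 over all genes. Regions with Suz12 had 25.2% of 1331 genes with such a difference, 249 with the higher value in ESC and 86 in NP. The lean towards ESC was thus not particular to members.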

How the data were processed

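RNA-seq and ChIP-seq of mouse ESC and NP were used as the authors' deposited comparison tables and region lists. Per the file headers, the tables have the column names of DESeq2, and their baseMean is a deposited signal: read counts over size factors, averaged across the libraries compared. The authors' fold changes and their SE are log2 values, and the deposited statistic, a score, is the fold change divided by its SE. Each deposited p-value, raw or adjusted, is from the authors' test. Each region has a deposited DiffBind value between 0 and 1, and its kind (a p-value, or else a false discovery rate) is not given in the sources used here. The submitters' processing notes name Bowtie, TopHat, DESeq2 and DiffBind, and the builds mm10 and dm3, without versions.

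Regions were compared with Python 3.11.15, numpy 2.4.6 and pandas 2.3.3, and 1 shared bp made a region a non-member. A gene was at a region when a start from the RefSeq windows (GRCm38.p6, 27025 genes) lay inside it. A call was an adjusted p below 0.05 as deposited, and nothing was refitted. Shares have 95% Wilson intervals from scipy 1.17.1. ESC and NP effects were compared by a Wald test of the difference of the estimates with Benjamini-Hochberg adjustment over all genes tested in both. The interval and difference code was tested on simulated data. Per-sample totals were not analysed here, and p-values measure the spread between samples that may be technical.

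Named genes were the 10 largest called rises and 5 largest called falls in ESC KO and the 2 of each in every other comparison, with a baseMean at or above the median of tested genes, plus list examples with the largest and smallest ESC KO values. Named regions were the 5 with the smallest value, the 5 widest and the 3 nearest to Suz12. The values of Ndn, Krt7, Zfp629 and the germline list, the Hoxa11 window and the CACGTG lines were chosen after values were seen. Members and gene lists were chosen with earlier results of these data known. Alternatives were a gap of at least 10000 bp, starts within 2500 bp, protein-coding genes, a baseMean of at least 10, an adjusted p under 0.01, values under 0.001 or 1e-10, an overlap of 10%, gene ends of the full gene table, and stricter CpG limits.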

Additional observations from a re-analysis of the deposited data

Results flagged for a closer look

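For 7 of the 15 genes with the largest called changes in ESC KO among genes with a baseMean at or above the median of tested genes, the log2 fold change in KO vs WT differed between ESC and NP at an adjusted p under 0.05 in a Wald test of the difference of the authors' estimates, adjusted over all genes tested in both. The difference, ESC minus NP, was 3.50 for Plagl1 (2.65 in ESC and -0.86 in NP, adjusted p 1.12e-12) and 2.54 for Rusc2 (2.44 and -0.10, adjusted p 2.20e-05). It was 2.15 for Col9a2 (1.98 and -0.17, adjusted p 0.00262), 1.90 for Aqp3 (2.09 and 0.19, adjusted p 0.0270) and 1.86 for Dazl (2.67 and 0.81, adjusted p 0.0452). For Trh it was -3.13 (-1.52 and 1.60, adjusted p 0.00425), and for Vsig10 it was -3.04 (-1.14 and 1.91, adjusted p 6.33e-10). Vsig10 was called in both tables in opposite directions. The other 8 genes did not pass, among them Ina at 1.39 ± 0.54 (adjusted p 0.0658), which was lower in KO in both cell states. The 15 genes were picked for large changes in ESC, so a smaller value in NP is partly set by that choice. Dazl, Aqp3 and Col9a2 were lower in NP WT than in NP KO (-4.10 ± 1.31, -2.38 ± 0.46 and -1.17 ± 0.46) in the authors' deposited table with the other WT libraries, so their NP values differed between the tables with different WT libraries.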

How the results depend on the processing

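No paired analysis was possible because the deposited tables hold statistics of comparisons and no values per sample, and for the same reason no replicate could be left out. Requiring an adjusted p under 0.01 moved 21 of 26 shares of called genes at members and reversed none. The higher and lower shares then were 13.3% and 2.32% in ESC KO, 7.87% and 3.81% in ESC KO-S, 7.04% and 4.03% in ESC KO-L3D, 1.51% and 0.687% in ESC KO-S3D, and 1.71% and 0.428% in ESC CSex4, with 1.39% higher in ESC KO-L. In NP they were 12.03% and 8.69% in KO vs WT, 8.41% and 15.6% in KO-L vs KO, then 12.97% and 16.0% for KO-S vs KO, 16.6% and 21.4% in WT vs KO, and 3.77% and 0.122% in CSex4. With a baseMean of at least 10, 22.8% were higher in ESC KO. With starts within 2500 bp, 9.74% were higher in ESC KO-S. A value under 1e-10, chosen after seeing the data, left 1454 members, and 1.19% were lower in NP CSex4. The share of members with a gene start was 31.5% with a gap of at least 10000 bp, 24.8% for protein-coding genes, 49.0% with starts within 2500 bp, 40.4% with a value under 1e-10, and 36.5% with either end of any gene of the full table, added after seeing the data. A GC content of at least 55% and a CpG ratio of at least 0.65 gave 46.3% CpG-rich windows. At an adjusted p under 0.01 the same tested genes were counted, so a share could only fall or stay. Shares over all genes at that limit are not given here. Likewise, starts within 2500 bp could only raise the share of members with a start. Protein-coding genes alone could only lower it, and stricter CpG limits could only lower the CpG-rich share. The cause of the other shifts was not tested. A value under 0.001 removed no member, since all values were at most 6.42e-05, and an overlap of at least 10% was within the spread allowed. Genes without an adjusted p (164 of 1069 in ESC KO with those at 0) limit what low reads can show.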
